A study of Mus musculus with 6 samples.

Results

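The 8 array entries described here, mmu-miR-6366, mmu-miR-3963, mmu-miR-5100, mmu-miR-5105, mmu-miR-3470a, mmu-miR-3470b, mmu-miR-2137 and mmu-miR-5126, are registered as mouse microRNAs (miRNAs) but have doubtful status as such. They were chosen by name, and partly on their brightness on these arrays, so their levels and their share of the signal are given as a description and are not tested. Of the 8, 7 had rows among the 1247 mouse miRNAs measured, and mmu-miR-3470b was not analysed here. Signal came from whole kidney of male C57BL/6 mice, an inbred laboratory strain, with 3 RNA preparations at 2 months (young) and 3 at 20 months (aged). No treatment or genetic change is labelled in either group. Each preparation was labelled with the dye Cy3 and hybridised to its own 1-colour Agilent array. Which animal each preparation came from is not labelled, and the spread behind the p-values may therefore be partly or wholly technical.

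A miRNA is a short RNA cut from a hairpin precursor and loaded into an Argonaute protein, where its seed (bases 2 to 8) pairs with target messages. Small-RNA cloning also recovers pieces of transfer RNA, ribosomal RNA and repeat transcripts, and some registered entries are debated because their reads may be such pieces. The miR-3470 entries, for example, resemble the B1 element, a short interspersed repeat with many copies in the mouse genome. An array probe reports whatever labelled RNA binds to it. Which RNA was bound by these probes was not tested.

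RefSeq (build GRCm38.p6) held mature sequences for 6 of the 8 entries. They are shown 5′ to 3′ with the seed in capitals, because the entries differ in base composition and seed and some of the results below are set beside that composition.

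mmu-miR-6366: aGCUAAGGggcccggggagcca

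mmu-miR-3963: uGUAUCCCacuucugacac

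mmu-miR-5100: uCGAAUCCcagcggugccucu

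mmu-miR-2137: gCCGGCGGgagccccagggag

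mmu-miR-5126: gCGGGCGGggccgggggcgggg

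mmu-miR-3470b: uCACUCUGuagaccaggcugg

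The 6 entries with a sequence share no seed with each other. Of the 1247 array miRNAs, 1017 matched a RefSeq mature sequence, and besides the entries themselves 0 of these carried the seed of any of the 6. The content of G and C was 100% in miR-5126, 85.7% in miR-2137, 72.7% in miR-6366, 61.9% in miR-5100, 57.1% in miR-3470b and 47.4% in miR-3963, against a median of 50% over the 1017. miR-3963 is thus close to the array's middle, and miR-5126 and miR-2137 lie at its G and C rich end. miR-5100 opens with UCGAAUCC, letters that also belong to the T-arm consensus of transfer RNAs. These 8 letters stood in 1 of 1679 mature sequences, that of miR-5100 itself, and in 2 of 1005 hairpins (0.199%). On either strand they stood in 68 of 32546 RefSeq promoters of 300 bases (0.209%). The whole miR-3470b sequence had an exact match on either strand in 10 of those promoters (0.0307%), and the other 5 sequences in 0.

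The printed loci lie on 5 chromosomes of GRCm38.p6. miR-6366 maps to chr16:18165093-18165114 (minus strand) and miR-3963 to chr3:151023839-151023857 (minus strand), neither overlapping an annotated gene that is not a miRNA. miR-5100 at chr11:60728698-60728718 (plus) overlaps the bounds of the protein-coding gene Mief2, and miR-2137 at chrX:72992113-72992133 (plus) those of Zfp185. miR-5126 at chr1:84695890-84695911 (plus) overlaps Dner, and miR-3470b at chr16:44013885-44013905 (plus) overlaps Gramd1c, both protein-coding. Exon, intron and strand of the host genes were not examined.

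The labelled tissue was checked against its markers. All 8 kidney marker miRNAs were well above background on the 6 arrays, and of 6 markers of other organs 4 were never above it. Of the rest, miR-124-3p (brain) was detected on 3 arrays and miR-1a-3p (muscle) on 4, both dim. miR-124-3p was also called higher in aged kidney (log2 difference 1.37, limma adjusted p = 8.63e-05). Each of its young values lay at the lower limit set for the levels, with an SD of 0. The size of this difference and its p therefore depend on that limit. The 4 blood cell markers on the array were detected throughout. Together they held 1.64 to 1.89% of the summed signal in young and 1.20 to 1.57% in aged kidney. They did not move in 1 direction. miR-451a (-0.34) and miR-144-3p (-0.73) were lower in aged kidney, and miR-142-3p (0.46) and miR-223-3p (0.55) were higher (aged minus young, log2). None of the 4 was called. Their part in the results below was not tested. Between 177 and 209 miRNAs were detected per array, and 0 spots were saturated. Young arrays and aged array 1 lay in slide row 1, aged arrays 2 and 3 in row 2. Arrays were scaled on the 75th percentile over 315 probes detected on each of them, and this percentile ranged 1.75-fold, with aged array 2 highest at 2054 intensity units and the others at 1171 to 1415.

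A large part of the signal came from a single entry. miR-6366 alone gave 38.9%, 41.2% and 39.2% of the summed miRNA signal on the 3 young arrays and 38.3%, 34.6% and 40.8% on the 3 aged arrays. It was the brightest of all 1247 on each of the 6 arrays. miR-3963 followed with 5.04%, 5.19% and 4.47% in young and 5.89%, 4.34% and 4.77% in aged kidney, and ranked 2 on each array. miR-5100 gave 3.15%, 3.59% and 3.02% in young and 3.26%, 3.04% and 3.38% in aged kidney. It ranked 3 on each array but aged array 2, where it ranked 5. The next brightest miRNAs were let-7a-5p, let-7f-5p, let-7c-5p, miR-29a-3p and let-7b-5p, whose single shares lay between 1.57 and 3.28% over all arrays.

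**Figure D1:**
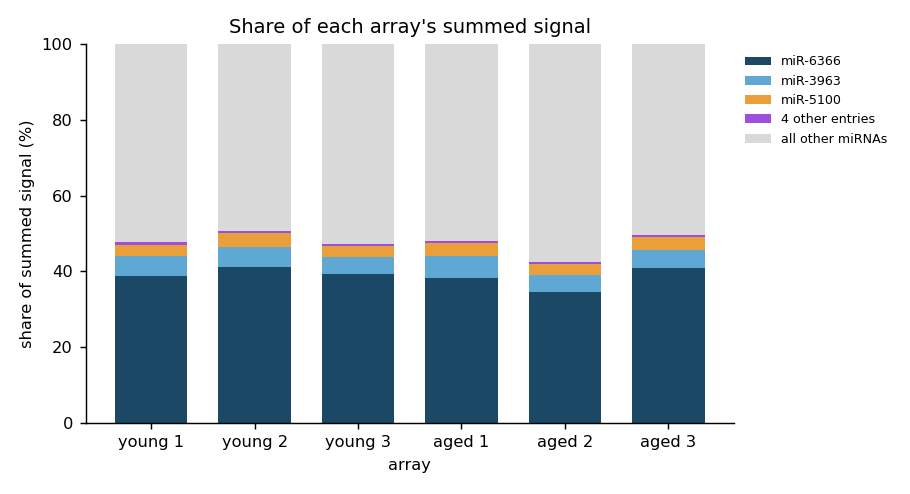
Stacked bars give the percent of each array's summed miRNA signal (y axis, from 0 to 100%) held by miR-6366, miR-3963, miR-5100, the 4 dimmer entries together and all other miRNAs, for 3 young and 3 aged arrays (x axis). The 7 entries together held 42.5 to 50.7%, and miR-6366 was the largest single entry on every array.

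Together the 7 entries held 48.6% ± 1.86 of the signal in young kidney and 46.7% ± 3.76 in aged kidney (mean ± SD, n = 3 each). The mean difference (aged minus young) was -1.87 percentage points, in size below the SD of the aged arrays and close to that of the young arrays. It was not tested. The lowest value, 42.5%, came from aged array 2. The 4 dimmer entries contributed 0.458 to 0.721% in all. These are shares of fluorescence. Probes differ in affinity and labelling, so a share of signal is not a share of molecules, and in whole tissue fewer cells of a type and less RNA per cell cannot be told apart.

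On the scaled scale (log2 of intensity over the 75th percentile, summed over an entry's probes), all 7 entries were detected on all 6 arrays and passed the detection filter. miR-6366 stood at 7.65, 7.78 and 7.70 on the young arrays and at 7.65, 7.35 and 7.86 on the aged arrays. Both the lowest and the highest of its 6 values were aged, so the groups overlapped. miR-3963 stood at 4.70, 4.79 and 4.57 in young and 4.95, 4.35 and 4.76 in aged kidney, again with both extremes among the aged arrays. miR-5100 stood at 4.02, 4.26 and 4.01 in young and 4.10, 3.84 and 4.26 in aged kidney.

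The brightness in the name applied to some of the entries. By mean level miR-6366, miR-3963 and miR-5100 ranked 1, 2 and 3 of 1247. miR-5126 ranked 44, miR-5105 ranked 60, miR-2137 ranked 123 and miR-3470a ranked 132. The last 2 were dim, with unscaled sums of 180 to 230 intensity units for miR-2137 and 136 to 220 for miR-3470a, against 235253 to 334986 for miR-6366. Levels in this order come from different probes, so the order is one of signal.

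miR-5126, whose sequence is G and C throughout, stood at 0.93, 1.18 and 0.92 on the young arrays and at 0.97, 0.28 and 1.16 on the aged arrays (log2 scaled level). A single array, aged array 2, lay apart from the other 5. miR-5105 stood at 0.18, 0.30 and 0.26 in young kidney and at 0.13, -0.35 and 0.22 in aged kidney. Here too aged array 2 was lowest, while aged arrays 1 and 3 lay 0.12 and 0.03 below the young mean of 0.25, closer to it than aged array 2.

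miR-2137 stood at -2.62, -2.56 and -2.65 on the young arrays and at -2.53, -3.40 and -2.83 on the aged arrays. miR-3470a stood at -2.69, -2.51 and -2.83 in young kidney and at -2.51, -3.91 and -3.21 in aged kidney. Both were lower on aged arrays 2 and 3 than on any young array, while aged array 1 lay close to the highest young array. All 4 of the dimmer entries lay above the floor of -5.22 on every array.

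**Figure D2:**
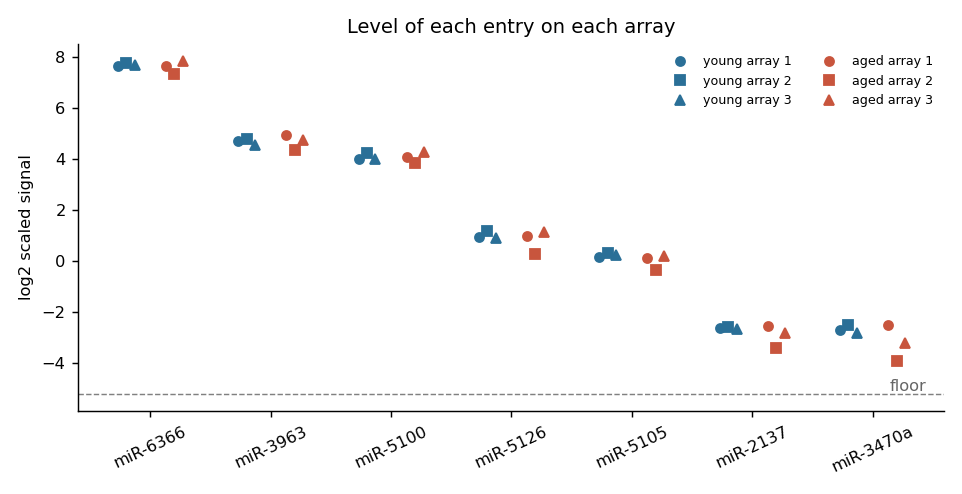
Points give the log2 scaled signal (y axis) of the 7 entries (x axis, ordered by mean level) on 3 young and 3 aged arrays, and the dashed line marks the floor of -5.22. Young and aged points overlap for each entry, and aged array 2 is the lowest point of all 7.

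Between ages, none of the 7 entries passed the threshold (0 of 7 by limma at an adjusted p under 0.05 over the 193 miRNAs tested, and 0 of 7 at an unadjusted p under 0.05). Over all 193 tested, 15 passed (7.77%), 8 higher and 7 lower in aged kidney, and 49 had an unadjusted p under 0.05 (25.4%). The groups overlapped for all 7 entries, whereas they did not for 59 of the 193 (30.6%). The difference of aged from young kidney was negative for 6 of the 7 entries, and for 128 of the 193 tested miRNAs. Its median was -0.21 over the entries, beside -0.08 over all tested miRNAs. These signs depend on the scaling. When all probes entered the 75th percentile, the median over tested miRNAs rose by 0.41 and 6 of the 7 entries were positive. With the median over detected probes (a rise of 0.14), without scaling (0.20) and in the authors' values (0.11), 3 were positive. The calls over all miRNAs split as 18 higher and 3 lower with the median over detected probes, 19 and 2 with quantile normalization, 10 and 0 in the authors' values, 4 and 0 with normexp and 14 and 25 with scaling on the sum of all other miRNAs.

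For the 3 brightest entries the differences were small. miR-3963 stood at 0.0036 ± 0.16 (aged minus young, log2 ± SE, n = 3 per group) with a 95% interval of -0.39 to 0.39, and miR-5100 at -0.026 ± 0.13 with an interval of -0.35 to 0.30. miR-6366 stood at -0.09 ± 0.14, from -0.42 to 0.24. Limma adjusted p was 0.988, 0.906 and 0.713 in this order. Differences within these intervals remain compatible with the 3 arrays per group, and the p-values do not show that the levels were equal.

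Among the dimmer entries all 4 differences were negative, a sign shared by 128 of all 193 tested miRNAs. The intervals of miR-5126, miR-2137 and miR-3470a were wider than those above. miR-5105 stood at -0.25 ± 0.16 (95% interval -0.63 to 0.13, limma adjusted p = 0.351) and miR-5126 at -0.21 ± 0.23 (-0.77 to 0.35, limma adjusted p = 0.586). miR-2137 stood at -0.31 ± 0.21 (-0.83 to 0.20, limma adjusted p = 0.369). miR-3470a, the B1-like entry, had the largest difference of the 7, -0.54 ± 0.34 (-1.35 to 0.27, limma adjusted p = 0.346), a ratio of 0.688. Without aged array 1 it passed the threshold, at -0.89 (limma adjusted p = 0.0281), and over all 24 alternatives its adjusted p ran from 0.0281 to 0.874. That omission also raised the calls over all miRNAs from 15 to 39. It leaves all young arrays in slide row 1 and all aged arrays in row 2, so age and row cannot be told apart there. Without aged array 2 the difference of miR-3470a was -0.19 (limma adjusted p = 0.672), that of miR-2137 -0.073 and that of miR-5105 -0.071, while miR-5126 stood at 0.052. The differences of these 4 entries thus rest largely on aged array 2. miR-2137 stood at -0.51 without aged array 1 (limma adjusted p = 0.0811).

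**Figure D3:**
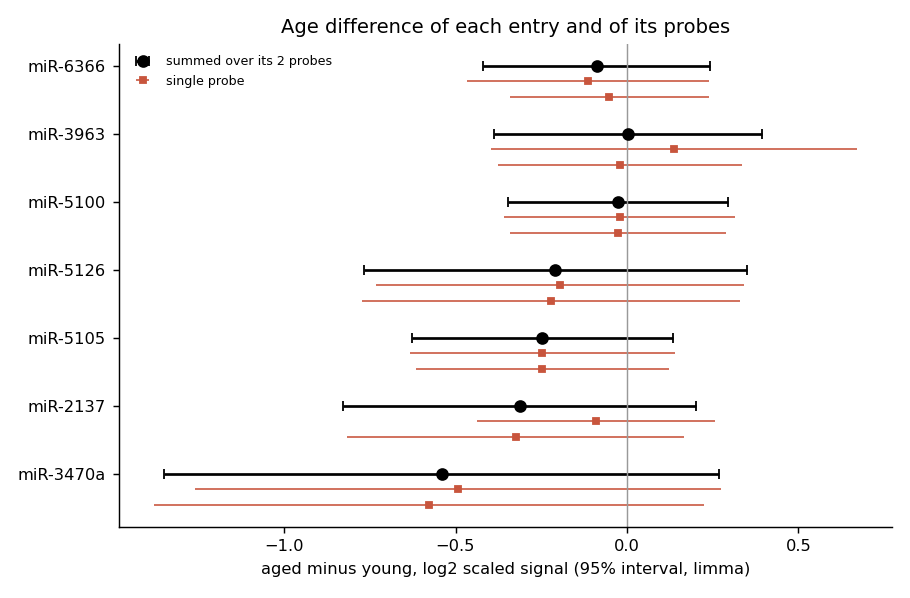
Aged minus young difference in log2 scaled signal (x axis) for each of the 7 entries (y axis, ordered by level), with 95% intervals from limma, n = 3 arrays per group. Black circles are the sum over an entry's 2 probes, red squares the single probes, and every interval includes 0. The upper probe of miR-2137 is limited by the floor on aged arrays 2 and 3.

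All 7 entries had a larger SD over aged than over young arrays, as had 142 of the 193 tested miRNAs (73.6%), so the larger aged spread was shared by most miRNAs. It was not tested. The SD over young arrays was 0.04 to 0.16 (log2) for the 7 entries, and that over aged arrays 0.21 to 0.70. Over all tested miRNAs the median SD was 0.09 in young and 0.13 in aged kidney. All 7 entries thus had an aged SD above that median, with miR-3470a at 0.70 above 93.3% of the tested miRNAs. Aged array 2 lay below the young mean for all 7 entries, by 0.25 for miR-5100 up to 1.24 for miR-3470a, where the median of all tested miRNAs on that array was -0.09 and 64.8% were below 0. On aged array 3 it was 3 of 7, with 49.2% of all tested below 0, and on aged array 1 also 3 of 7, with 60.6%. On aged array 2, 29.5%, 31.6% and 36.8% of tested miRNAs deviated lower than miR-6366, miR-3963 and miR-5100. For the dimmer entries this share was 4.15 to 18.1%.

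On aged array 2 the unscaled signals of the entries and the percentile used for scaling moved by different amounts. The 75th percentile of the detected probes there was 1.62 times the young mean. The unscaled signal of miR-5100 was 1.36 times its young mean, that of miR-3963 1.28 times and that of miR-6366 1.26 times. miR-5105 stood at 1.07, miR-5126 at 0.973, miR-2137 at 0.934 and miR-3470a at 0.682 times the young mean. All 7 entries thus lay below the percentile's ratio on that array, which restates their low scaled levels there. Unscaled, 3 of them, miR-5126, miR-2137 and miR-3470a, also lay below their own young mean. That count was not set beside one over all miRNAs. The 5 control probes examined on the same array stood at 1.51 (hur_6), 1.35 (hur_4), 1.15 (dmr_285), 1.05 (dmr_31a) and 1.02 (dmr_6) times their young mean. The part of labelling or hybridisation in this was not tested. miR-3470a was also low unscaled on aged array 3, at 0.694, where the percentile stood at 1.01.

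**Figure D4:**
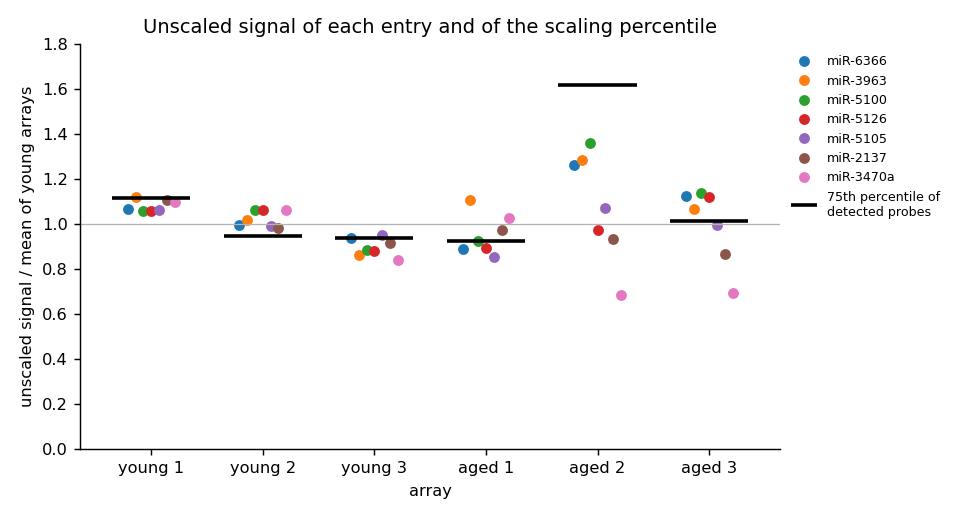
Points give the unscaled signal of each of the 7 entries relative to its mean over the young arrays (y axis, linear from 0), for 3 young and 3 aged arrays (x axis), and black bars give the same ratio for the 75th percentile of the detected probes. On aged array 2 the percentile reaches 1.62, with all 7 entries below it, from 0.682 to 1.36.

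Of the aged arrays, 2 and 3 lay in slide row 2. miR-3470a and miR-2137 were low on both, whereas miR-6366, miR-3963, miR-5100 and miR-5126 stood above their young mean on aged array 3, by 0.15, 0.08, 0.17 and 0.15. When slide row entered as a block, the limma differences of miR-3470a and miR-2137 were 0.16 ± 0.26 and 0.08 ± 0.21, and 0 of the 7 entries passed. Both values rest on aged array 1, which shared its row with the young arrays. Row 1 alone gave the same values, 0.16 for miR-3470a and 0.08 for miR-2137, and 0.26 for miR-3963. Age and row cannot be told apart for the 2 arrays of row 2.

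Each of the 7 entries had 2 probes. In miR-5100 the brighter probe was 16.6 times as bright as the dimmer one, and their log2 ratio kept within 0.08 over the 6 arrays. In miR-3963 the ratio was 5.39-fold and in miR-5105 it was 3.13-fold. The log2 ratio of the miR-2137 probes was 1.85 to 2.12 on the 4 arrays where both were detected. The probes of miR-6366 (1.49-fold), miR-3470a (1.33-fold) and miR-5126 (1.11-fold) were close to each other. Among 135 miRNAs with 2 or more probes detected on all arrays the median was 1.94-fold, with quartiles of 1.44 and 3.04. The ratio itself says nothing of amount, and its range over the arrays measures how well the probes of an entry agreed.

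That range was 0.06 for miR-5126, 0.08 for miR-5100 and 0.10 for miR-5105, below the median of 0.12 over the 135 miRNAs. It was 0.17 for miR-6366, 0.22 for miR-3470a and 0.48 for miR-3963. For miR-2137 it was 0.27 over only 4 arrays, so it is not like the median, which is over all 6. In miR-3963 the spots of the brighter probe varied by 29.7% (coefficient of variation) on aged array 1, against 3.01 to 8.41% on the other 5 arrays. The median over detected probes on aged array 1 was 10.4%. Aged array 1 also gave the highest level of miR-3963, and with outlier spots kept its age difference was -0.18 in place of 0.0036.

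Age differences of the single probes were fitted over 354 probes. Of these 19 passed by limma (5.37%), and of the 14 probes of the 7 entries 0 did, also 0 at an unadjusted p under 0.05. The 2 probes of miR-5105 differed by 0.001 (log2) in their age difference and those of miR-5100 by 0.0047. The probes of miR-3963 differed by 0.16. The brighter probe of miR-2137 gave -0.32 ± 0.21, while the values of its dimmer probe on aged arrays 2 and 3 were set by the floor and allow no exact difference or gap. Both probes of miR-3470a gave similar values, -0.58 ± 0.34 and -0.49 ± 0.32, each low on aged arrays 2 and 3.

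The pattern over the 6 arrays differed among the entries. By the root mean square (RMS) difference of log2 levels, each centred on its own mean, miR-5100 and miR-6366 were the closest pair at 0.06, and miR-3470a and miR-5100 the farthest at 0.43. Outside the 7 entries, miR-222-3p had the profile nearest to miR-6366 (RMS 0.06), followed by miR-30d-5p (0.09). miR-3968 (0.10) and miR-5097 (0.13) were nearest to miR-3963, and miR-5097 (0.08) and miR-222-3p (0.08) to miR-5100. miR-1897-3p (0.08) and miR-2861 (0.09) were nearest to miR-5105, and miR-3960 (0.05) and miR-2861 (0.07) to miR-5126. miR-5109 (0.07) and miR-6243 (0.08) were nearest to miR-2137. miR-3470a was farther from its nearest profiles, miR-3098-5p (0.13) and miR-5109 (0.18). All rest on 6 arrays that share their scaling.

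Of 150 other array miRNAs whose registry numbers lie next to those of the 7 entries, 9 were detected well enough to be tested. By limma 0 rose and 0 fell, and 1 had an unadjusted p under 0.05. Of their differences 7 of 9 were negative, beside 128 of 193 over all tested miRNAs, and their median was -0.21. The brightest of them, miR-5109, ranked 10 of 1247 and stood at -0.36 ± 0.24 (limma adjusted p = 0.363). miR-3473b stood at -0.34 ± 0.20, miR-3960 at -0.21 ± 0.21 and miR-5097 at 0.03 ± 0.10. The list was taken by number and the 4 named are its brightest tested members. Nothing particular to it follows from these counts.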

How the data were processed

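Levels of miRNAs in kidney at 2 ages were read from 6 scanner files. Per the file headers, design 046065 was scanned and read with Feature Extraction 11.5.1.1. The deposited spot intensity values were already background-subtracted by that software and not scaled between arrays, and the deposited flags, given per spot (other values of 0 or 1), mark spots as above background, outlying or saturated. The authors also deposited processed log2 values. These equalled log2 of the software's total signal less 1 constant per array (largest departure 1e-05), so scale and direction are known, while what the constant was computed from is unknown. Their medians per array ran from -10.10 to -9.20.

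Intensity was averaged over an array's spots of a probe without outliers, scaled on the 75th percentile of that array (315 probes detected on all arrays), summed per miRNA, floored at -5.22 and taken to log2. A probe was detected where over 50% of its spots were above background. The 193 miRNAs detected on all arrays of a group were fitted with limma 3.58.1 in R 4.3.3 (group as the single term, Benjamini-Hochberg, threshold 0.05). Single probes were fitted likewise. The files hold no mean spot signal, so normexp used the median signal. The number of arrays limits the precision. The fit was tested on simulated data, with planted differences larger than those of the entries and the same spread in both groups.

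The members, the lists, the rule for named miRNAs (all entries, their 2 nearest profiles, the 4 brightest of neighbouring numbers and the 5 brightest others) and the tests were chosen with earlier results of these data known. Slide row 1 alone was added after the data were seen. Sequences came from RefSeq on GRCm38.p6, while the array design names mm9. Figures were drawn with matplotlib 3.10.9.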

Additional observations from a re-analysis of the deposited data

How the results depend on the processing

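The number of entries past the threshold was 0 under all alternatives but 1, the omission of aged array 1 (range 0 to 1). Under that omission age and slide row coincide. The signs were less stable. With the 75th percentile over all probes the differences were 0.32 for miR-6366, 0.39 for miR-5100, 0.17 for miR-5105, 0.10 for miR-2137 and 0.20 for miR-5126, and by probe 0.13 and 0.088 (miR-2137), 0.39 (miR-3963), 0.39 and 0.39 (miR-5100), 0.17 and 0.17 (miR-5105), 0.22 and 0.19 (miR-5126) and 0.30 and 0.36 (miR-6366). With the median over detected probes they were 0.051 for miR-6366 and 0.11 for miR-5100, by probe 0.12 (miR-3963), 0.12 and 0.11 (miR-5100) and 0.026 and 0.088 (miR-6366). Without scaling miR-6366 was 0.11 and miR-5100 0.18, and in the authors' values 0.027 and 0.089. miR-3963 was -0.0048 without entry probes in the percentile, -0.029 with scaling on the sum of all other miRNAs, -0.021 with its brightest probe and -0.18 with outlier spots kept. Under quantile normalization miR-6366 and miR-3963 had no difference by construction, since each held 1 rank on all arrays. With slide row as a block miR-5100 was 0.0034, miR-3470a 0.16 and miR-2137 0.075, by probe 0.23 and 0.035 (miR-2137), 0.16 and 0.16 (miR-3470a), 0.21 (miR-3963) and 0.059 (miR-5100), and row 1 alone gave 0.0034, 0.16 and 0.075. Leaving out 1 array gave -0.21 to 0.046 for miR-6366, -0.13 to 0.17 for miR-3963, -0.12 to 0.087 for miR-5100, -0.39 to 0.052 for miR-5126, -0.36 to -0.071 for miR-5105, -0.51 to -0.073 for miR-2137 and -0.89 to -0.19 for miR-3470a. The dimmer miR-2137 probe, the first of its pair above, is limited by the floor.

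Of all tested miRNAs, 15 passed in the main processing, 2 without scaling, 25 without the entries' probes in the percentile, 39 with the sum of all other miRNAs, 4 with normexp, 6 with no detection filter, 5 with slide row as a block and 5 to 39 with 1 array left out (6, 5 and 8 without young array 1, 2 and 3, and 39 and 9 without aged array 1 and 2). With the replicate block 3 passed. The deviations of same-numbered arrays correlated at 0.12, -0.58 and 0.31 across miRNAs that share each array's scaling. Whether the numbers pair the arrays is not labelled, and these few values of mixed sign cannot decide it. With normexp the entries' share was 34.5% in young and 33.9% in aged kidney. That setting changes the spot signal, the background correction and an added offset together, and their parts were not separated. The cause of this and of the other shifts was not tested.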

Other observations

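Content of G and C was set against the deviation of each array over all tested miRNAs. Among 155 tested miRNAs with a RefSeq sequence, the Pearson correlation of G and C content with the deviation from the young mean was -0.35 on aged array 2. It was 0.03 on aged array 1 and 0.15 on aged array 3, and -0.25, 0.38 and -0.17 on the 3 young arrays. These are correlations across miRNAs of 1 array, which share its scaling and are not independent, and they are given as a description. The 7 tested miRNAs with at least 70% G and C, of which miR-5126, miR-2137 and miR-6366 are 3, had a median deviation of -0.73 on aged array 2, 0.04 on aged array 1 and -0.0042 on aged array 3. The other 148 stood at -0.06, -0.08 and 0.01. The median of -0.73 is the value of miR-5126 itself, so it is not separate from the entries' own low values on that array. The limit of 70% was set after the values were seen, and the part of base composition in the age differences was not tested.

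Probes of the entries also entered the scaling of the whole array. Of the 315 probes from which the percentile was taken, 13 belonged to them, and 5 of their probes lay above the percentile on every array. With the 13 left out the median difference of all tested miRNAs moved by -0.0084, while the count past the threshold went from 15 to 25. With each array scaled to the summed signal of all other miRNAs it was 39. The entries themselves stayed at 0 past the threshold in both. Scaling on a sum also replaces the percentile, and leaving out 13 other probes was not tried. The part of the entries in these counts was therefore not tested.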
